A study of Mus musculus with 4 samples.

Results

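The transcripts described here are noncoding RNAs whose level differed by at least 2-fold between some pair of 4 arrays of mouse dendritic cells. A probe was taken when its transcript identifier is one that RefSeq gives to noncoding RNAs, its gene has no probe for a coding transcript, its signal was well above background on every array, and its level spanned at least 1 log2 unit between the highest and the lowest array. This left 206 probes of 200 genes, out of 809 noncoding probes well above background on all 4 arrays and 56605 probes in all. Counted as genes, these are 200 of 768 noncoding genes measured on all arrays and of 23462 named genes on the array. The array held 2556 probes with a noncoding identifier. Of these, 57 had no symbol in the RefSeq table, 55 belonged to genes that also have a coding probe, and 2444 remained. Among those, 1172 were above background on no array, 463 on 1 to 3 arrays, and 603 were measured on all arrays with a span under 1. The members were thus chosen by their levels on these same 4 arrays, so the sizes of the differences given here only describe them.

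The cells were bone marrow-derived dendritic cells, antigen-presenting cells grown from the femur marrow of male C57BL/6J mice and used on day 6. The sample titles mark all 4 samples as wild type (WT). The culture medium was MEM, to which 10% FBS was added, with GM-CSF at 10 ng/ml. There was 1 array for each of 4 groups: LPS (100 ng/ml) together with LA (20 mM) for 4 h, LPS alone for 4 h, LA alone for 4 h, and medium, for which no time is given. LPS is a bacterial cell wall component that activates these cells, and LA is written L-(+)-LA in the labels, while the series title speaks of lactate. With 1 array per group there is no spread between cultures and no test, and each difference sets 1 array against 1 other. How many animals gave the marrow of each array is not given in the sources used here.

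Noncoding RNAs act without being translated. Long noncoding RNAs are transcribed and processed much like messenger RNAs, and some hold back or recruit transcription factors, serve as the precursor of small RNAs, or are transcribed across the regulatory DNA of a neighbouring gene. Transcribed pseudogenes are copies of coding genes, and a probe for one may also bind the parent's RNA. In myeloid cells that sense LPS, many long noncoding RNAs are made together with cytokine genes, under the same signalling pathways.

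By the RefSeq type, 153 of the 206 probes (148 genes) were long noncoding RNAs, 40 were transcribed pseudogenes, 11 were small structured RNAs such as the RNA subunit of RNase P, and both probes of Slfn10-ps carried the type misc_RNA. Long noncoding RNAs thus made up 74.3% of the members, so the whole set is called varying noncoding transcripts here. The share of measured probes that varied was 24.1% of 635 for long noncoding RNAs, 27% of 148 for transcribed pseudogenes and 45.8% of 24 for small structured RNAs. Provisional symbols were common: 88 probes have one that ends in Rik, 44 one that begins with Gm and 1 one that begins with LOC.

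Sequences are shown for 2 kinds of members that the results turn on: the microRNAs that lie inside host transcripts among the members, and the promoters of the long noncoding RNAs with the clearest patterns. Mir22hg is the host transcript of miR-22, and the gene bounds of F630028O10Rik enclose the hairpin of miR-223, a microRNA known from myeloid cells. Their mature sequences are printed with the seed, bases 2 to 8, in capitals. The arrays did not measure the mature microRNAs.
mmu-miR-22-3p: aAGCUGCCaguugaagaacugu
mmu-miR-22-5p: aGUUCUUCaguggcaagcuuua
mmu-miR-223-3p: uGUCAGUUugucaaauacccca
mmu-miR-223-5p: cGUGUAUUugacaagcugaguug
The 4 mature sequences come from RefSeq on GRCm38.p6 and have 4 different seeds. Those of miR-22 lie at chr11:75463772-75463793 (3p) and chr11:75463734-75463755 (5p), and those of miR-223 at chrX:96242884-96242905 (3p) and chrX:96242842-96242864 (5p), all on the plus strand. The bounds of Mirg enclose 10 hairpins, among them Mir154, Mir369, Mir377, Mir409, Mir410 and Mir541, those of Snhg20 enclose Mir6516, those of Dubr enclose Mir6363, those of 6030407O03Rik enclose Mir6351 and those of 6430411K18Rik enclose Mir433.

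Promoters are given for 6 members whose levels are described one by one below, each as 300 bases from 250 before to 50 after the gene's start, from RefSeq on GRCm38.p6. Capitals mark matches to motifs searched on both strands, with N for any base. The kappaB-like motif was GGNNNTTCC and the ISRE-like motif was GAAANNGAA, both shorter and so looser than the usual consensus. The GAS-like motif was TTCNNNGAA, and the CRE was TGACGTCA. The AP-1-like motif was TGANTCA. The core of the hypoxia response element was ACGTG. The TATA box was searched as TATAAA. In the windows printed, no match to one motif overlaps a match to another. The order below is AW011738 (chr4:156203034-156203333, plus strand), AW112010 (chr19:11050517-11050816, minus strand), Morrbid (chr2:128429302-128429601, minus strand), Gdap10 (chr12:32823866-32824165, plus strand), Nron (chr2:33805566-33805865, plus strand) and Mir22hg (chr11:75461289-75461588, plus strand).
AW011738: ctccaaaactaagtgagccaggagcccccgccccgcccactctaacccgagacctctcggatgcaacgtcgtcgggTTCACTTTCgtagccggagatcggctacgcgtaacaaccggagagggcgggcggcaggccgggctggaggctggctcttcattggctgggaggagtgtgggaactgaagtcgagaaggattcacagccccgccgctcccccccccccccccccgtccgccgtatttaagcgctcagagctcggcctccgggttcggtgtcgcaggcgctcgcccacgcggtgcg
AW112010: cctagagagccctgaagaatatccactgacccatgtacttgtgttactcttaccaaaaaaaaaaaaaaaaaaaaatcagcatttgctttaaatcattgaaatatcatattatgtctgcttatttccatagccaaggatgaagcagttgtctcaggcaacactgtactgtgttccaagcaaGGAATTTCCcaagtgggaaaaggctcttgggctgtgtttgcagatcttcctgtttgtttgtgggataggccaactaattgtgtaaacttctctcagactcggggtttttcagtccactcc
Morrbid: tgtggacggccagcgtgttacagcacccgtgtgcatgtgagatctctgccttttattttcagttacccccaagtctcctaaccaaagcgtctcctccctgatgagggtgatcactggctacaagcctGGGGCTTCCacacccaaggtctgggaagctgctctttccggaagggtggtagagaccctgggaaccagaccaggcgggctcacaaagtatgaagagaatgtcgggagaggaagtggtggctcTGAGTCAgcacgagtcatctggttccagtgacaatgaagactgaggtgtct
Gdap10: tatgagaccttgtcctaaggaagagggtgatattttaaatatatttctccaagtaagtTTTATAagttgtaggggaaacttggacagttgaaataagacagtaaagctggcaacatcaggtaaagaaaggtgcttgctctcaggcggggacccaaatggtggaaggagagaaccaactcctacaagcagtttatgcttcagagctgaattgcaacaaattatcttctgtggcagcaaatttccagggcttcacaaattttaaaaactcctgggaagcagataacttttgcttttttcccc
Nron: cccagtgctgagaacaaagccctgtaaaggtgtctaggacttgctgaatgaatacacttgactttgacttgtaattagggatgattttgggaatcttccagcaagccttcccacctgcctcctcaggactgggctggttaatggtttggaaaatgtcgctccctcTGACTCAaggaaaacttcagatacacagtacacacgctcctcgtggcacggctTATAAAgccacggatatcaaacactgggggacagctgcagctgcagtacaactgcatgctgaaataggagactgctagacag
Mir22hg: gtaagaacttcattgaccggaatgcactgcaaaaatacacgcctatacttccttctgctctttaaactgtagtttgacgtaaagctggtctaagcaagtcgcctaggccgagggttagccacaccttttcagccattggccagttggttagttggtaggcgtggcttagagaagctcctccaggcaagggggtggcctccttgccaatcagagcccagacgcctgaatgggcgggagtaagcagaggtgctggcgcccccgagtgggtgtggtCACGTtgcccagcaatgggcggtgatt
The window of AW112010 holds a stretch that matches the kappaB-like motif on both strands, and that of Morrbid matches it on one. Those of Morrbid and Nron hold a match to the AP-1-like motif, that of Mir22hg holds the hypoxia core on the minus strand, those of Nron and Gdap10 hold a TATA box on one strand, and that of AW011738 holds 1 match to the ISRE-like motif. RefSeq gave a promoter for 116 of the 200 genes. The kappaB-like motif occurred in 24 of these 116 windows (20.7%), against 4972 of all 27025 windows (18.4%). The AP-1-like motif occurred in 9 (7.76%), against 7.93% of all windows, the ISRE-like motif in 6 (5.17%, against 8.57%), the GAS-like motif in 14 (12.1%, against 8.47%), the CRE in 5 (4.31%, against 1.88%), the hypoxia core in 23 (19.8%, against 19.7%) and the TATA box in 9 (7.76%, against 14.2%). The kappaB-like motif was in 7 of 30 windows of members at least 2-fold higher with LPS and in 6 of 21 of those at least 2-fold lower with LPS. The hypoxia core was in 3 of 18 windows of members at least 2-fold higher with LA and in 7 of 21 of those at least 2-fold lower, and the kappaB-like motif was in 4 and 7 of the same windows. A match is a run of letters, not a site shown to be bound.

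A level is the log2 ratio of a probe's processed signal to its array's 75th percentile, so a level of 0 is a probe as bright as that percentile and a difference of 1 is 2-fold. Levels of different probes are not set against each other. Dim probes depended on the background correction: of the members' 307 differences of at least 2-fold in the 4 comparisons first described below, 93 remained so after normexp, which shrinks differences of dim probes, and 256 to 279 remained so under the other scalings. None changed sign. The median span of the members was 1.42 log2 units and the quartiles were 1.21 and 1.89. A span of at least 2 was reached by 45 members and a span of at least 3 by 11, and the widest was 6.29. As a description with no test, 25.5% of the 809 noncoding probes spanned at least 1, against 35.1% of 17612 coding probes and 32.1% of all 29004 probes measured on all arrays. Among dim probes with a mean level under -2 the shares were 30.7% and 35% for noncoding and coding probes, between -2 and 0 they were 28.9% and 39.4%, and from 0 upward they were 16.9% and 31.5%. The members just inside the limit were 4930549C15Rik and AI504432 (span 1.02 each) and Gm11529 and 4930441H08Rik (1.0 each), while 3110056K07Rik, Sprr2g, 2610206C17Rik and 1700073E17Rik fell just outside with 0.99 each.

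Among the members, the LPS array was the one that stood out most often. It held the highest level of 79 members and the lowest of 71. The counts were 48 and 43 for LPS with LA, 42 and 43 for LA, and 37 and 49 for medium. The members were chosen by these same levels. Over all 29004 probes measured on all arrays, 10.3% were at least 2-fold higher and 12.3% lower for LPS with LA minus LPS. For LPS with LA minus LA these shares were 0.893% and 1.09%, so the tilt was not particular to the members. In the map of all members, the column of LPS differs from the other 3 in both directions, and LPS with LA resembles LA.

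**Figure D1:**
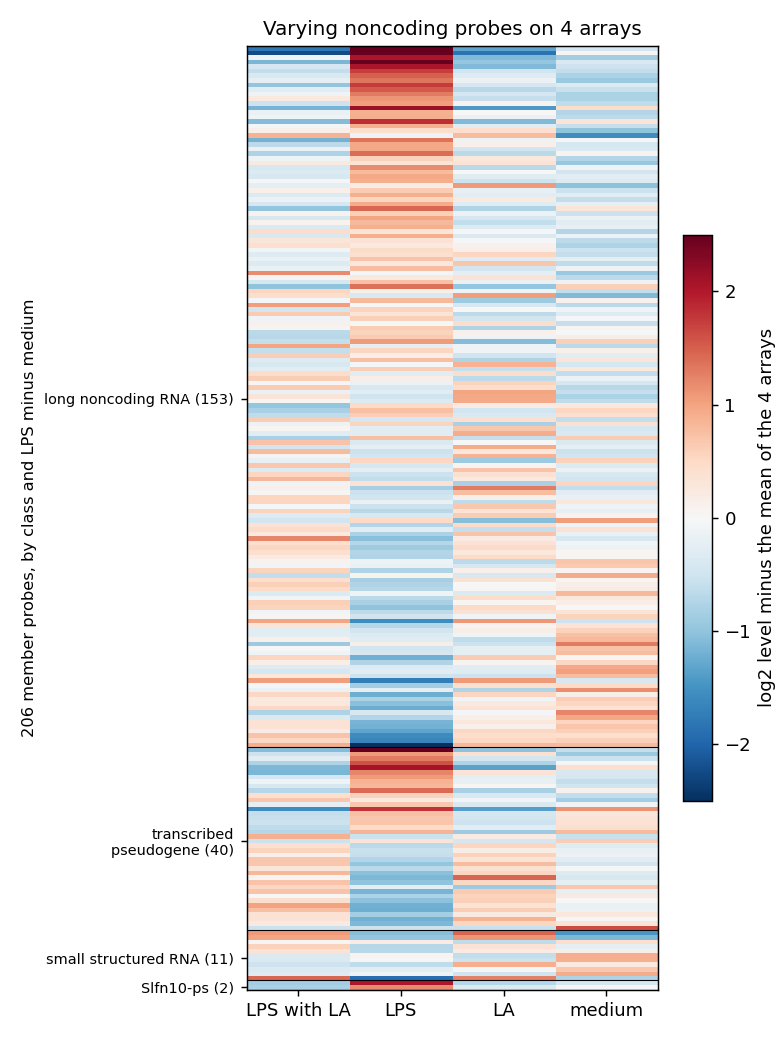
Levels of the 206 member probes (rows, ordered by class and by the difference of LPS minus medium) on the 4 arrays (columns), as log2 level minus the mean of the 4 arrays, red for higher and blue for lower. The LPS array holds the highest level of 79 members and the lowest of 71, and the colours end at 2.5 log2 units. The members were chosen by these same levels.

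LPS against medium asked which noncoding transcripts differ 4 h after the bacterial stimulus. AW011738, AW112010, Marcksl1-ps4, Slfn10-ps and Morrbid were higher with LPS, and 2900005J15Rik, 2210408F21Rik, Defa-ps1 and Snhg20 were lower. In all, 59 of 206 members were at least 2-fold higher with LPS, 39 were at least 2-fold lower and 108 were neither. Over all probes measured on all arrays, 7.96% were at least 2-fold higher and 6.69% at least 2-fold lower. Since the members were chosen for their span, their larger share says nothing further about them. The median difference was 0.16 over the members, 0.14 over the 809 noncoding probes and 0.04 over all probes. Of the called members 60.2% were higher, a split that depended on the scaling: it was 39.6% in the authors' deposited table, 42.6% with a percentile over spots above background, and 84.0% after another background correction (normexp). By class, 45 long noncoding RNAs were higher and 30 lower, 12 pseudogenes were higher and 7 lower, and 0 small structured RNAs were higher and 2 lower.

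AW011738, annotated as a long noncoding RNA, had the widest span of all members and was measured by 2 probes. The brighter probe stood at -3.03 with LPS and LA, 3.26 with LPS, -2.65 with LA and -0.77 in medium. The other probe gave -3.12 with LPS and LA, 2.25 with LPS, -2.65 with LA and -1.82 in medium. The probes were 16.3-fold and 16.8-fold higher with LPS than in medium (10.8-fold and 8.52-fold after normexp), and the level with LPS and LA lay below that of medium on both. Its promoter window, printed above, held an ISRE-like match on the minus strand and none to the kappaB-like motif.

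AW112010 is known from LPS-stimulated mouse macrophages, where a protein translated from it has been described although it is annotated as noncoding. Its level was 1.08 with LPS and LA, 4.71 with LPS, 1.25 with LA and 1.84 in medium, a 7.35-fold higher level with LPS than in medium. LPS was the high array and the other 3 lay within 1 log2 unit of each other. Among provisional names, 9530036O11Rik stood at -2.18 with LPS and LA, -0.07 with LPS, -3.20 with LA and -2.97 in medium (7.45-fold higher with LPS than in medium, and 3.05-fold after normexp). A930015D03Rik stood at -2.31 with LPS and LA, 0.16 with LPS, -2.98 with LA and -2.40 in medium (5.89-fold, and 2.58-fold after normexp).

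Morrbid, a long noncoding RNA that controls the lifespan of short-lived myeloid cells through the pro-apoptotic gene Bcl2l11, was measured by 2 probes for different transcripts. One stood at 1.09 with LPS and LA, 2.98 with LPS, 1.16 with LA and 0.69 in medium. The dimmer one stood at -2.99 with LPS and LA, -1.40 with LPS, -2.89 with LA and -3.66 in medium. The first was 4.91-fold and the second 4.79-fold higher with LPS than in medium, so that LPS was the high array and medium the low one for both. After normexp correction the dim probe's difference was 0.82 log2 units, which is under 2-fold, and that of the bright probe was 1.98.

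Of members lower with LPS, 2900005J15Rik showed the widest gap. Its level was 0.36 with LPS and LA, -3.03 with LPS, 0.26 with LA and 0.25 in medium, 9.69-fold lower with LPS than in medium. After normexp it was 3.2-fold lower, and its level on the LPS array lay near the lowest level above background there, -3.49. Only the LPS array was low, and the highest of the others exceeded the lowest by 0.11 log2 units. The transcript 2210408F21Rik had the same shape, at -0.67 with LPS and LA, -2.84 with LPS, -0.67 with LA and -0.59 in medium, and its difference of -2.25 between LPS and medium was -1.06 after normexp. Defa-ps1, a pseudogene of the defensin family of antimicrobial peptides, was instead high on 1 array only, with -2.89 with LPS and LA, -2.90 with LPS, -2.91 with LA and -0.73 in medium. Its difference between LPS and medium was -0.87 after normexp, under 2-fold.

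Mirt2, described in macrophages as an LPS-inducible brake on inflammatory signalling, did not run higher with LPS here. It stood at -0.87 with LPS and LA, -1.71 with LPS, -0.44 with LA and -0.34 in medium, 2.57-fold lower with LPS than in medium. Slc2a4rg-ps was 2.26-fold lower, with 0.43 with LPS and LA, -1.14 with LPS, 0.95 with LA and 0.04 in medium. The list of LPS-responsive or immune noncoding RNAs held 22 genes, of which 8 were on the array and 5 were measured on all arrays. Of these 5, Morrbid was at least 2-fold higher with LPS and Mirt2 and Nron were at least 2-fold lower, with a median of -0.38. The call of Nron, at -1.05, was under 2-fold with median scaling (-0.99), quantile normalization (-0.99) and normexp (-0.60), and that of Mirt2 after normexp (-0.81). Another gene of that list, Mir155hg, the host of the inflammatory microRNA miR-155, was no member because it was well above background on 2 arrays only. It stood at 2.73 with LPS and -3.09 in medium, a difference of 5.82 log2 units.

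**Figure D2:**
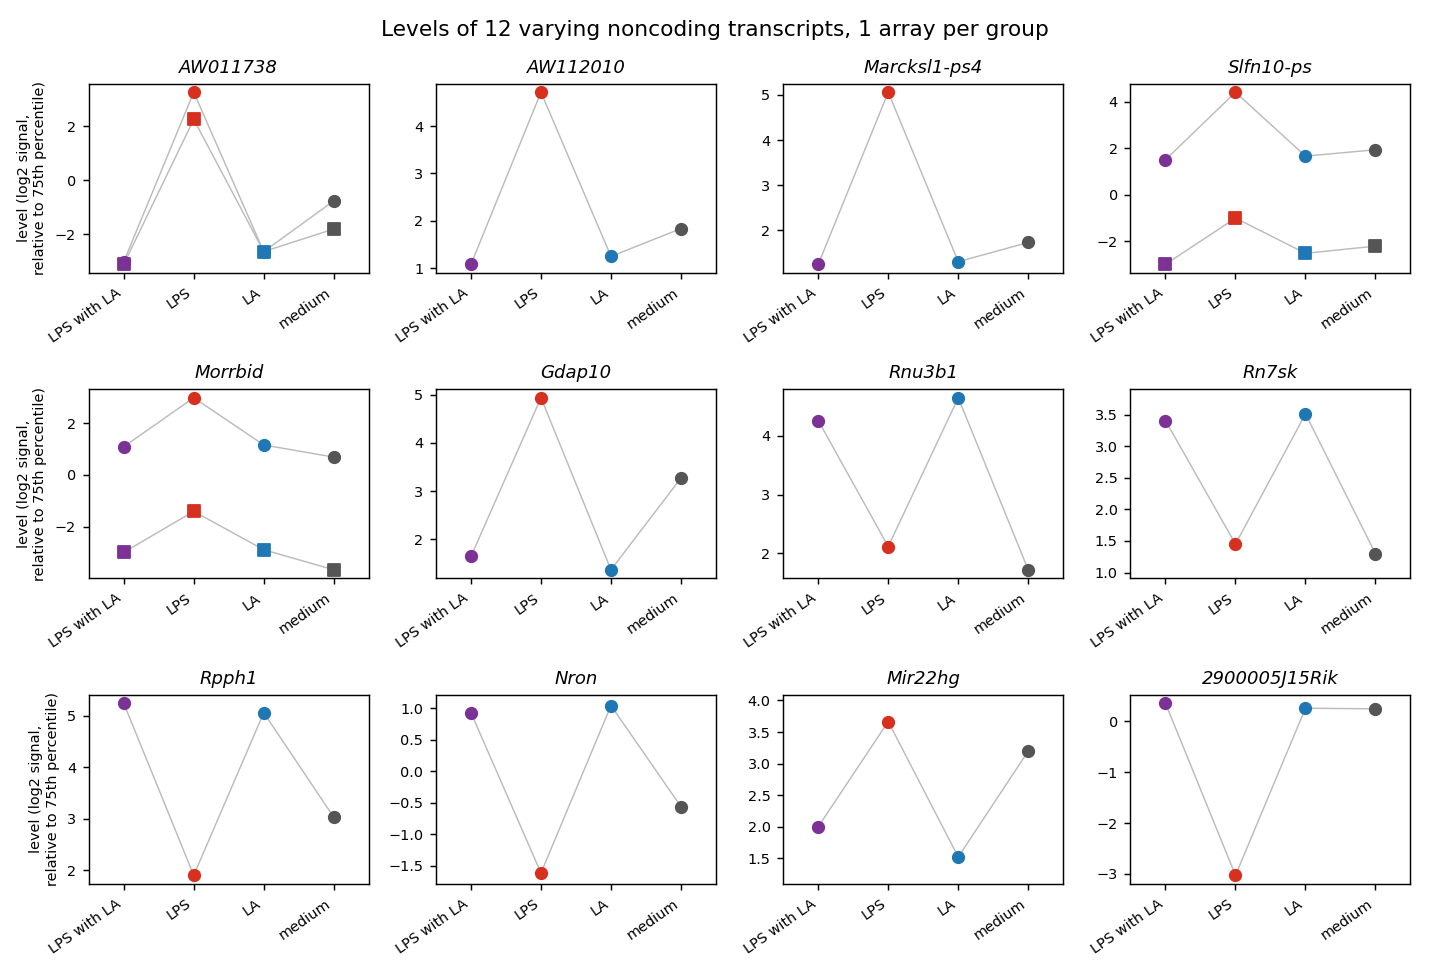
Levels of 12 varying noncoding transcripts (log2 signal relative to the array's 75th percentile) on the arrays of LPS with LA, LPS, LA and medium, 1 point per probe and array, with lines joining the points of a probe and squares for a second probe. The upper 6 genes are highest with LPS, Rnu3b1, Rn7sk, Rpph1 and Nron are high on both arrays with LA, and each panel has its own axis.

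LA against medium asked what LA alone does. The small structured RNAs Rnu3b1, Rn7sk and Rpph1 and the long noncoding RNAs Nron and Mirg were higher with LA. Defa-ps1, Gdap10, AW011738 (by 1 of its probes), Gnasas1, H2-Q5 and Mir22hg were lower. AW011738 differed by -1.88 on its brighter probe, and by as little as -0.75 under the alternative scalings. Its other probe differed by -0.83, under 2-fold. Of the members 32 were at least 2-fold higher, 35 at least 2-fold lower and 139 neither, while 2.62% of all probes were higher and 3.73% lower. The median difference was 0.05 over the members, 0.08 over noncoding probes and 0.00 over all probes. By class, 26 long noncoding RNAs were higher and 25 lower, 3 pseudogenes were higher and 6 lower, and 3 small structured RNAs were higher and 4 lower.

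The RNA of U3, which guides the first cuts of ribosomal RNA processing, is measured by Rnu3b1. It stood at 4.26 with LPS and LA, 2.12 with LPS, 4.64 with LA and 1.72 in medium, and was 7.59-fold higher with LA than in medium. Rn7sk, the 7SK RNA that holds the elongation factor P-TEFb inactive, stood at 3.41 with LPS and LA, 1.45 with LPS, 3.51 with LA and 1.30 in medium (4.65-fold). Rpph1, the RNA subunit of the tRNA-processing enzyme RNase P, stood at 5.24 with LPS and LA, 1.90 with LPS, 5.06 with LA and 3.03 in medium (4.09-fold). For all 3, both arrays with LA were high and both arrays without LA were low.

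The spliceosomal U1 RNAs went the other way. Rnu1b1 stood at 1.31 with LPS and LA, 1.71 with LPS, 1.13 with LA and 2.56 in medium, and Rnu1b6 stood at 1.57 with LPS and LA, 2.0 with LPS, 1.32 with LA and 2.84 in medium. Rnu1a1, at 2.25 with LPS and LA, 2.48 with LPS, 2.08 with LA and 3.51 in medium, had the same order. The sequences of U1 copies are nearly the same, so these 3 probes cannot be taken as separate measurements of 3 genes. Of the list of 30 small structured RNAs, 11 were measured on all arrays and 7 were members. With LA against medium, 3 of the 11 were at least 2-fold higher and 2 were at least 2-fold lower, with a median of 0.06. Mature forms of these RNAs carry no poly(A) tail, and how the labelling copied them is not given in the sources used here.

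Nron, a long noncoding RNA that keeps the transcription factor NFAT in the cytoplasm, stood at 0.93 with LPS and LA, -1.61 with LPS, 1.04 with LA and -0.56 in medium. It was 3.04-fold higher with LA than in medium. AU022793 ran alike, with 2.14 with LPS and LA, -0.64 with LPS, 2.15 with LA and 0.70 in medium. The difference of LPS with LA minus LA was -0.11 for Nron and -0.01 for AU022793, so in both transcripts the 2 arrays with LA were alike.

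Imprinted noncoding RNAs gave 3 members, of 6 imprinted genes measured on all arrays, while 200 of all 768 noncoding genes so measured were members. Mirg, the maternally expressed microRNA host of the Dlk1-Dio3 region, stood at -0.89 with LPS and LA, -1.30 with LPS, 0.01 with LA and -1.58 in medium, 3.0-fold higher with LA than in medium, and just under 2-fold after normexp. Gnasas1, the antisense RNA of the Gnas locus, stood at -4.01 with LPS and LA, -2.97 with LPS, -3.64 with LA and -1.81 in medium, 3.54-fold lower with LA than in medium. On both arrays with LA this level lay close to the lowest level still above background, -4.06, and after normexp its difference between LA and medium was -0.46. Peg13 stood at -1.23 with LPS and LA, -2.33 with LPS, -1.12 with LA and -1.70 in medium, so that its difference between LA and medium was 0.58, under 2-fold.

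Gdap10, whose gene overlaps Nampt, stood at 1.64 with LPS and LA, 4.94 with LPS, 1.37 with LA and 3.27 in medium. It was 3.75-fold lower with LA than in medium and higher with LPS than in medium. Mir22hg, the host transcript of the miR-22 sequences above, stood at 2.0 with LPS and LA, 3.67 with LPS, 1.52 with LA and 3.20 in medium, and was 3.20-fold lower with LA than in medium. F630028O10Rik, whose bounds enclose miR-223, stood at -0.74 with LPS and LA, -1.22 with LPS, -1.0 with LA and -0.05 in medium. Medium was its high array, and its difference between LA and medium was -0.95.

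LPS with LA against LPS asked how LA changes the state of LPS-treated cells. AW011738, Marcksl1-ps4, AW112010, Gdap10, Slfn10-ps and Morrbid were lower with LPS and LA than with LPS, and 2900005J15Rik, Rpph1, AU022793, Nron, Snhg20 and Nlrp1c-ps were higher. This comparison shares the LPS array with that of LPS against medium, so a member that stands out on that array stands out in both. In all 59 members were at least 2-fold higher, 59 were at least 2-fold lower and 88 were neither. Over all probes, 10.3% were higher and 12.3% lower. The median difference was 0.01 over the members and -0.04 over all probes. Of the called members 50% were higher, and this split became 68.5% in the authors' deposited table, 63.4% with the percentile over spots above background and 39.2% after normexp. By class, 39 long noncoding RNAs were higher and 42 lower, 15 pseudogenes were higher and 15 lower, and 5 small structured RNAs were higher and 0 lower.

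The 2 probes of AW011738 were 78.1-fold and 41.5-fold lower with LPS and LA than with LPS, and 19.5-fold and 10.2-fold lower after normexp. Marcksl1-ps4 was 14-fold lower, AW112010 12.4-fold and Gdap10 9.81-fold. Gm18852 stood at -3.62 with LPS and LA, -0.26 with LPS, -3.44 with LA and -0.95 in medium (10.2-fold lower with LPS and LA than with LPS), and 2500002B13Rik stood at -3.13 with LPS and LA, -0.19 with LPS, -3.15 with LA and -1.71 in medium (7.68-fold). In these members both arrays with LA were below medium, and the array of LPS alone was the highest. Medium was not low in all of them, since Gm18852 was 0.69 and Gdap10 1.67 log2 units higher with LPS than in medium. After normexp, Gm18852 was 2.73-fold and 2500002B13Rik 2.27-fold lower with LPS and LA than with LPS. In the other direction, Rpph1 was 10.2-fold higher with LPS and LA than with LPS, 2900005J15Rik 10.5-fold, AU022793 6.87-fold and Nron 5.82-fold. After normexp 2900005J15Rik was 3.44-fold and Nron 3.42-fold higher.

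Small nucleolar RNAs guide chemical changes of ribosomal RNA, and of a list of 22 of their host genes 14 were measured on all arrays. Of these 3 were members, while 200 of all 768 noncoding genes measured on all arrays were members. Snhg20 stood at 1.82 with LPS and LA, 0.07 with LPS, 1.68 with LA and 1.66 in medium, so that LPS alone was low. Snhg15 stood at -0.62 with LPS and LA, 1.79 with LPS, -0.39 with LA and 0.66 in medium. Zfas1 stood at 0.08 with LPS and LA, 1.43 with LPS, 0.67 with LA and 0.92 in medium. Snhg15 has another probe for the same transcript, which gave 2.06 with LPS and LA, 2.48 with LPS, 1.95 with LA and 2.14 in medium, a span of 0.53, so the size of the difference of Snhg15 depended on the probe. With LPS and LA against LPS, Snhg20 was at least 2-fold higher and Zfas1 at least 2-fold lower (-0.92 in the authors' deposited table, under 2-fold). Snhg15 differed by -2.41 on its member probe and by -0.42 on the other. The median of the list was -0.22, with Snhg15 taken by the other probe.

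No member came from the list of nuclear architecture and chromatin RNAs, which held Neat1, Kcnq1ot1, Norad and Tug1 among others. Over all noncoding genes measured on all arrays, 200 of 768 were members. Of the 20 genes of the list, 8 were measured on all arrays. Their medians were -0.06 for LPS minus medium, -0.04 for LA minus medium and 0.16 for LPS with LA minus LPS. From the list of growth arrest, p53 and hypoxia RNAs, 6 of 15 were measured on all arrays. Lncpint, induced by p53, was the member. It stood at -0.52 with LPS and LA, -1.13 with LPS, 0.01 with LA and -0.19 in medium, and its other probe spanned 0.75. Bloodlinc, known from red cell precursors and in no list, stood at -0.54 with LPS and LA, 1.03 with LPS, -0.83 with LA and -0.24 in medium, so that it was at least 2-fold higher with LPS than in medium.

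**Figure D3:**
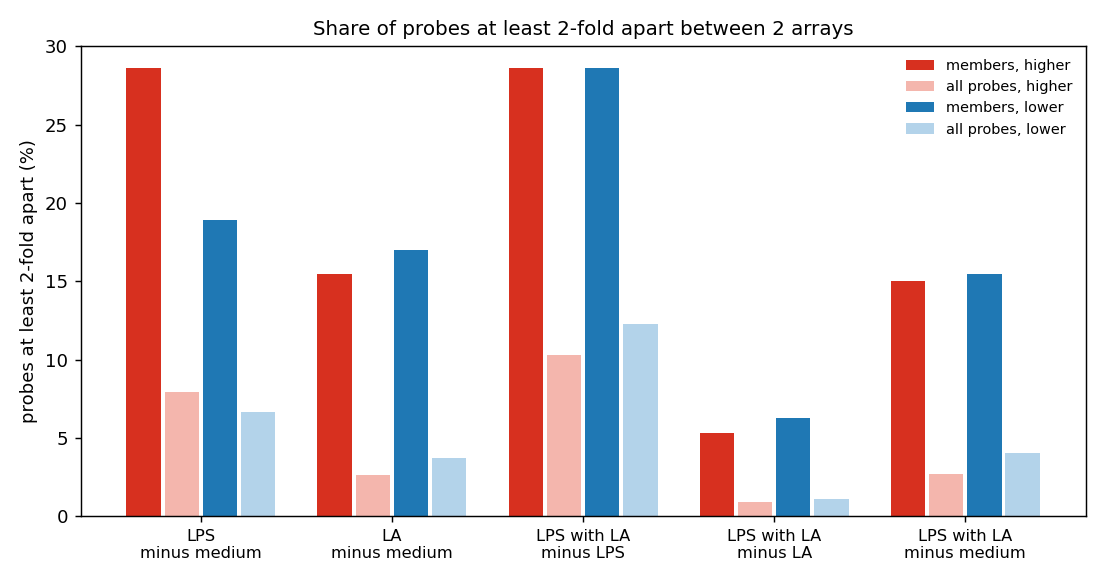
Share of probes at least 2-fold higher (red) and lower (blue) in each comparison of 2 arrays, for the 206 members (dark) and for all 29004 probes measured on all arrays (pale), in percent. The members were chosen for their span, so the dark bars exceed the pale ones by construction, and both are lowest for LPS with LA minus LA.

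LPS with LA against LA asked what LPS adds when LA is present. Only 11 members were at least 2-fold higher and 13 at least 2-fold lower, and 182 were neither, while 0.893% of all probes were higher and 1.09% lower. The largest differences were those of 4930573O16Rik and Gm10823 (2.71-fold higher each), Btnl5-ps (2.69-fold higher), Gm6524 (2.76-fold lower), Rnu2-10 (2.68-fold lower) and Gm7104 (2.62-fold lower). Rnu2-10, a copy of the spliceosomal U2 RNA, stood at -2.62 with LPS and LA, -2.76 with LPS, -1.20 with LA and -1.87 in medium. Btnl5-ps stood at -1.87 with LPS and LA, -2.66 with LPS, -3.30 with LA and -1.72 in medium, while its other measured probe spanned 0.17. Many of these members are dim: among members at least 2 times as bright as the lowest signal above background on every array, 0 were at least 2-fold higher and 6 at least 2-fold lower, and after normexp 0 and 1 of all members were. LPS with LA against medium gave 31 members higher, 32 lower and 143 neither, with 2.69% of all probes higher and 4.06% lower.

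The difference that LPS made could be set side by side without LA (LPS minus medium) and with LA (LPS with LA minus LA), on 4 arrays of which none is shared. The SD of the difference over the 206 members was 1.22 without LA and 0.58 with LA. Over all 29004 probes it was 0.78 and 0.36, so the narrower spread with LA was not particular to the members. The 2 differences had a correlation of -0.05 over the members and 0.01 over all 29004 probes. The values over the members come from the same levels that chose them, and the points share their arrays. The only member that was at least 2-fold higher with LPS in both settings was 9530036O11Rik, by 2.90 without LA and 1.01 with LA, where its level with LA was a dim -3.20. No member was at least 2-fold lower in both, and Gm4827, Gm6524 and 4632404H12Rik went opposite ways. Over all 29004 probes, 51 (0.176%) were higher in both, 27 (0.0931%) lower in both and 61 (0.21%) opposite. After normexp none of these 4 members was 2-fold apart in both settings, and 4632404H12Rik (0.96 for LPS minus medium) was not in the authors' deposited table.

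For the difference that LA made, without LPS (LA minus medium) and with LPS (LPS with LA minus LPS), the correlation was 0.45 over the members, 0.42 over the noncoding probes and 0.47 over all probes. At least 2-fold higher with LA in both settings were 10 members: Rpph1, Rnu3b1, AU022793, Nron, Gm7104, 4930455H04Rik, Rn7sk, Gm3893, B230208H11Rik and Gm15408. At least 2-fold lower in both were 13: AW011738 (by 1 of its probes), Gdap10, H2-Q5, Gm18852, 2500002B13Rik, Snhg15, A930013F10Rik, Gnasas1, Mir22hg, Gm13315, Trmt61b, AU015791 and 4930565N06Rik. Snhg15 and Trmt61b also rest on 1 of their probes. The other probe of Snhg15 measured on all arrays differed by -0.19 for LA minus medium and -0.42 for LPS with LA minus LPS. That of Trmt61b differed by -0.64 and -0.68, under 2-fold. Gm6815 alone was at least 2-fold apart in opposite directions. Over all 29004 probes, 288 (0.993%) were higher in both, 622 (2.14%) lower in both and 64 (0.221%) opposite, and the members had been chosen for their span. Some of these calls lie at the limit. With median scaling 4930455H04Rik, B230208H11Rik and Gm15408 were lost, and Gnasas1, Snhg15, Trmt61b and 4930565N06Rik were in the authors' deposited table, while the counts of members were 7 higher and 14 lower in the first and 19 and 9 in the second. After normexp 5 were higher (Rpph1, Rnu3b1, AU022793, Nron and Rn7sk) and 4 lower (Gdap10, H2-Q5, Mir22hg and Gm13315). The LA difference with LPS lay at least 1 log2 unit below the LA difference without LPS for 63 members and at least 1 above it for 46, against 9.88% and 8.72% of all probes.

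**Figure D4:**
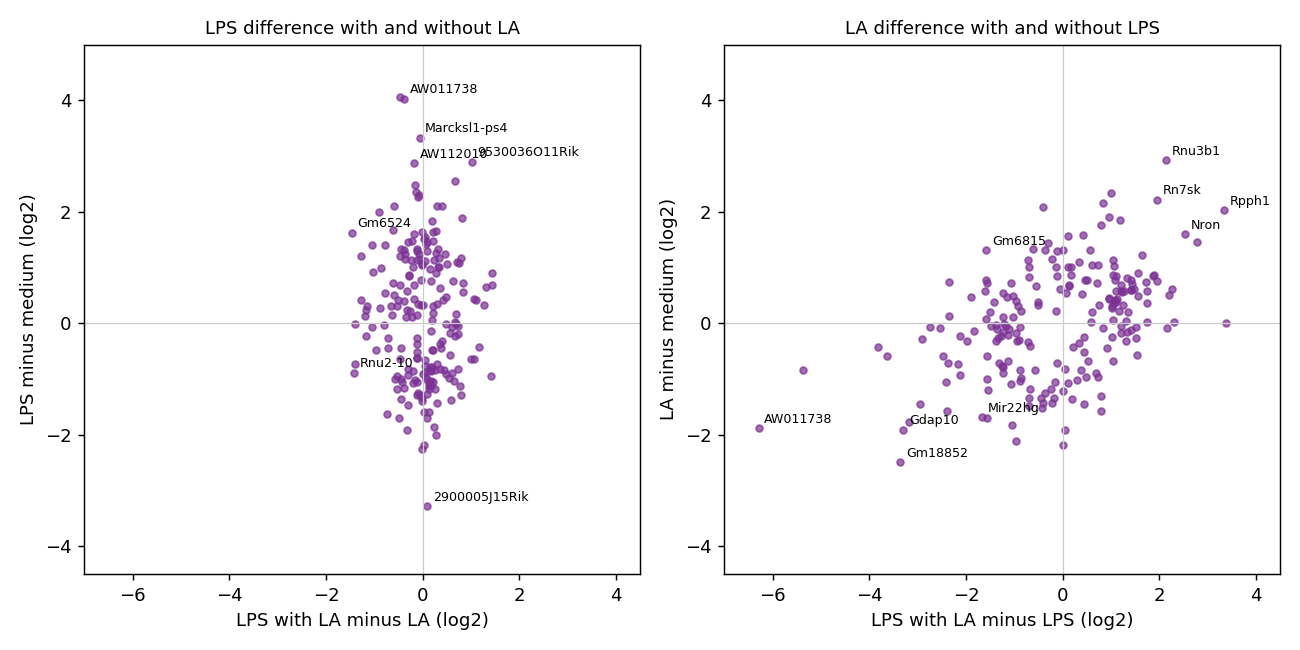
Differences of the 206 member probes in log2 units, with the LPS difference without LA against that with LA (left) and the LA difference without LPS against that with LPS (right), each point 1 probe and each axis a different pair of arrays. On the left the points spread more widely along the axis without LA (SD 1.22) than along the axis with LA (SD 0.58). Over all 29004 probes these SDs were 0.78 and 0.36. On the right AW011738 (by its brighter probe) and Gdap10 lie low and Rnu3b1, Rn7sk, Rpph1 and Nron high on both axes.

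Several pseudogenes differed between the arrays much as their parents did. Marcksl1-ps4 stood at 1.25 with LPS and LA, 5.06 with LPS, 1.31 with LA and 1.73 in medium, a difference of 3.33 for LPS minus medium, and its parent Marcksl1 gave 3.37. For LPS with LA minus LPS the values were -3.81 for Marcksl1-ps4 and -3.89 for Marcksl1. Stxbp3-ps, at 1.92 with LPS and LA, 4.28 with LPS, 1.93 with LA and 2.63 in medium, gave 1.64 and -2.36 in these 2 comparisons, and Stxbp3 gave 1.74 and -2.66. The 3 pseudogenes of Pisd, a mitochondrial phospholipid enzyme, were all higher with LPS and LA than with LPS, by 1.96, 1.1 and 1.73 log2 units, and Pisd itself by 1.38. Hmga2-ps1 went against Hmga2, by 1.33 and -0.76 for LPS minus medium.

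Of the 18 member probes with a symbol ending in ps, 9 had a measured parent of the same name. Of the 7 that were at least 2-fold apart between LPS with LA and LPS, 6 had a parent at least 2-fold apart in the same direction. The 3 pseudogenes of Pisd share 1 parent among these. Over all probes, 10.3% were at least 2-fold higher and 12.3% lower in this comparison. For LPS minus medium 6 were at least 2-fold apart, and 2 of them had a parent at least 2-fold apart in the same direction. Over the 9, the correlation with the parent was 0.88 for LPS minus medium, 0.91 for LA minus medium, 0.92 for LPS with LA minus LPS and 0.25 for LPS with LA minus LA, where 3 of the 9 share Pisd. Whether such a probe binds the RNA of the parent was not tested, so the levels of these pseudogenes are uncertain. The same holds for the class I histocompatibility pseudogenes, whose coding relatives are alike in sequence. H2-Q5 stood at 0.84 with LPS and LA, 4.02 with LPS, 0.63 with LA and 2.39 in medium, and H2-K2 stood at 6.44 with LPS and LA, 7.76 with LPS, 6.61 with LA and 7.33 in medium. Slfn10-ps, from the interferon-inducible Schlafen family, was high with LPS on both probes. One gave 1.51 with LPS and LA, 4.41 with LPS, 1.66 with LA and 1.94 in medium, and the other -2.99 with LPS and LA, -1.0 with LPS, -2.52 with LA and -2.21 in medium.

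Antisense or opposite-strand transcripts were set beside their named partner in the same way. Of 12 such members, 9 had a partner measured on all arrays. Of the 5 that were at least 2-fold apart between LPS with LA and LPS, 2 had a partner at least 2-fold apart in the same direction. These were Abhd11os (1.41, Abhd11 1.24) and Arhgap27os3 (1.02, Arhgap27 2.31). Both members were under 2-fold after normexp, and Arhgap27os3 with median scaling too. For LPS minus medium 1 of the 9 was at least 2-fold apart, and for LA minus medium 3 were. In these 2 comparisons 0 had a partner at least 2-fold apart in the same direction. Gnasas1 differed by -1.16 for LPS minus medium and Gnas by 0.29.

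The nearest measured coding gene within 50 kb was looked up by gene order in RefSeq for every member, which gave 156 pairs of a member probe and a neighbour, of which 79 overlap. Neighbours were not used in choosing the members. Each neighbour, like each named parent or partner above, was represented by 1 probe, also where its gene had several (6 for Gnas). Between LPS with LA and LPS, 35.3% of the members' neighbours were at least 2-fold apart, against 23.4% of 398 neighbours of noncoding probes that did not vary. Of these 398 pairs 159 overlap, so the 2 sets differ in their share of overlapping pairs. The 156 pairs come from 151 member genes, so some neighbours are counted more than 1 time. Over all probes, 10.3% were at least 2-fold higher and 12.3% lower in this comparison. For LPS minus medium the shares were 18.6% and 16.8%, for LA minus medium 5.77% and 7.54%, and for LPS with LA minus LA 1.28% and 1.01%. Of 43 members higher with LPS, 11 had a neighbour at least 2-fold higher and 3 a neighbour at least 2-fold lower, and of 33 members lower with LPS, 3 had a neighbour lower and 1 a neighbour higher. Between LPS with LA and LPS, 47 members were higher, with 13 neighbours higher and 3 lower, and 44 were lower, with 16 neighbours lower and 3 higher. Of all 156 neighbours, 18 were at least 2-fold higher and 11 lower for LPS minus medium. For LPS with LA minus LPS, 25 were higher and 30 lower. The correlation over the 156 pairs was 0.22 for LPS minus medium, 0.20 for LA minus medium, 0.24 for LPS with LA minus LPS and 0.07 for LPS with LA minus LA, and over the 398 pairs of steady probes it was 0.19, 0.03, 0.14 and -0.07. The points of a pair share their arrays, and some neighbours overlap a member.

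Gdap10 and Nampt, the enzyme that salvages NAD, were at least 2-fold apart in the same direction in 3 comparisons, which share arrays. Gdap10 differed by 1.67 for LPS minus medium, -1.91 for LA minus medium and -3.29 for LPS with LA minus LPS, and Nampt by 1.58, -1.41 and -3.11. The same 3 differences were 1.52, -1.44 and -2.94 for 2500002B13Rik and 1.63, -1.80 and -3.42 for Sap30, a subunit of a histone deacetylase complex. The transcript 9330175E14Rik overlaps Nlrc5, the activator of class I genes. It differed by 1.33 for LPS minus medium and -2.17 for LPS with LA minus LPS (0.80 and -1.07 after normexp), and Nlrc5 by 2.19 and -2.20. Slfn10-ps and both probes of AI662270 lie beside Slfn8 and Slfn3, of which Slfn8 was 2.20 and Slfn3 2.55 higher with LPS than in medium. In the higher direction with LPS and LA, Nron (2.54) and Mvb12b (2.48), which it overlaps, were alike. So were the pseudogene Nlrp1c-ps (2.20) and Nlrp1b (2.26), an inflammasome sensor gene that it overlaps. Whether the probe of Nlrp1c-ps binds RNA of Nlrp1b was not tested.

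Other pairs went apart. AW011738, by its brighter probe, differed by 4.03 for LPS minus medium and -6.29 for LPS with LA minus LPS, and the overlapping gene Perm1 by -0.49 and 2.21. Gm11110 differed by -1.0 for LPS minus medium (-0.94 with median scaling, -0.48 after normexp) and the cytokine gene Tnfsf9, which it overlaps, by 4.73. Whether RNA of one gene of an overlapping pair reaches the probe of the other was not tested.

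**Figure D5:**
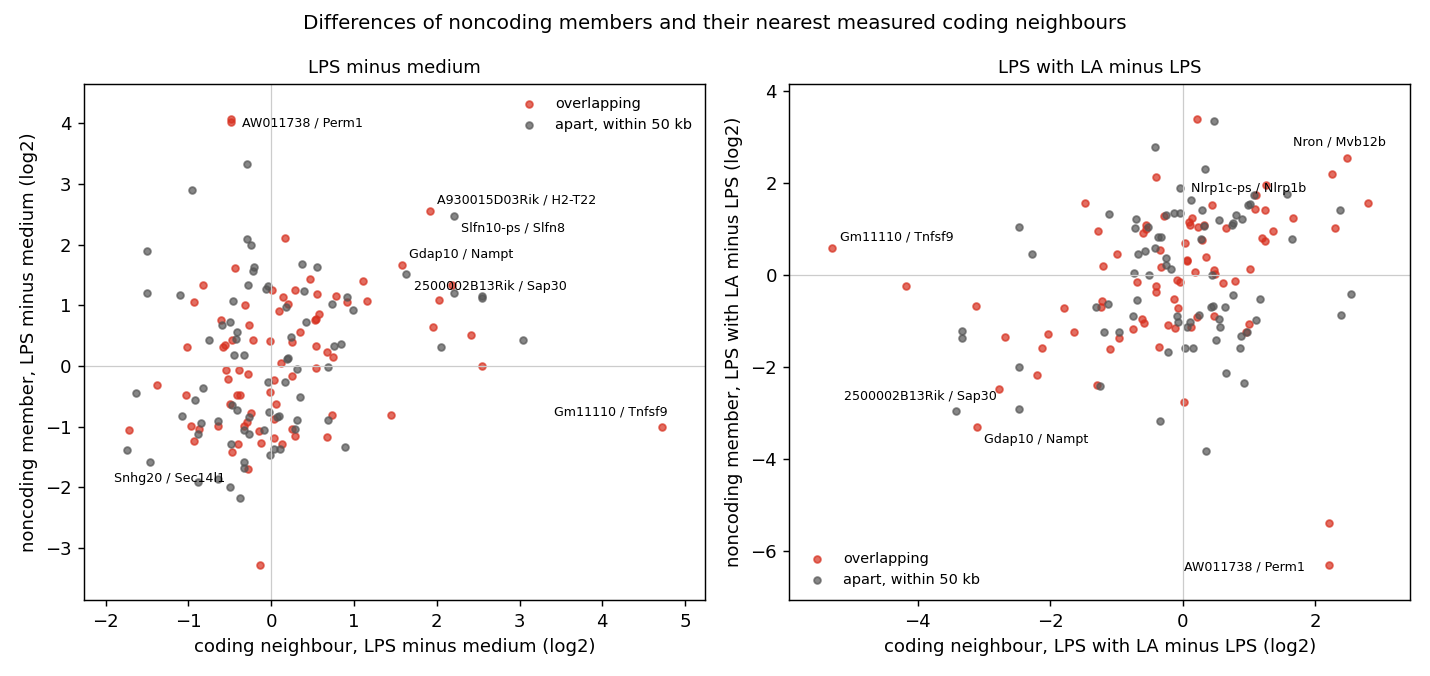
Differences in log2 units of 156 pairs of a noncoding member (vertical axis) and its nearest measured coding gene (horizontal axis), for LPS minus medium (left) and LPS with LA minus LPS (right), red where the genes overlap and grey where they lie apart within 50 kb. Gdap10 and Nampt lie on the diagonal in both panels, and AW011738 and Perm1 and Gm11110 and Tnfsf9 lie far from it.

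Several member probes represented the same gene in 5 cases, and within each gene all of them were highest on the same array. Besides AW011738, Morrbid, Slfn10-ps and AI662270, this was B230354K17Rik with 3 probes, highest in medium and lowest with LPS. Another 17 genes had further probes that are no members, 21 in all, of which 9 were above background on all arrays with spans under 1. So 195 genes rest on 1 member probe each.

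How dim a transcript could be and still be measured differed between arrays. The share of spots well above background was 63.6% with LPS and LA, 56.5% with LPS, 64.1% with LA and 61.5% in medium. The lowest level above background was -4.06 with LPS and LA, -3.49 with LPS, -4.06 with LA and -3.91 in medium, so a dim transcript had to be brighter to be counted on the LPS array. Probes printed 10 times had a median SD between spots of 0.05 log2 units at levels of 0 and over and of 0.20 to 0.26 at levels under -2. The first rests on 270 or 271 probes per array, but the second on 3 to 5 only. Both cover the error within an array only. All 14 dendritic cell markers were above background on every array, with a summed signal, relative to the 75th percentile, of 219 with LPS and LA, 356 with LPS, 230 with LA and 303 in medium. All 11 neutrophil markers were too, with sums of 657 with LPS and LA, 462 with LPS, 643 with LA and 430 in medium. Both arrays with LA had the higher neutrophil sums. They were also high for Rnu3b1, Rn7sk, Rpph1 and Nron and low for Gdap10, H2-Q5, Mir22hg and Gm13315, all of them members chosen by their levels on these arrays. Such sums weigh the brightest markers most. The median difference for LA minus medium was 0.65 over the neutrophil list and -0.62 over the dendritic cell list. Not every marker followed its list. Ly6g stood at -0.73 with LPS and LA, -0.70 with LPS, -0.69 with LA and -0.78 in medium. Ciita, a dendritic cell marker, stood at 2.39, 1.39, 2.25 and 1.35 in that order. The 6 mast cell, basophil and eosinophil markers summed to 101 with LPS and LA, 77.9 with LPS, 95.7 with LA and 48.2 in medium. Of 8 macrophage markers 7 were above background on all arrays, with sums of 74.7 with LPS and LA, 112 with LPS, 80.7 with LA and 103 in medium. Lymphocyte markers (2 of 4 on all arrays) summed to 1.20 to 1.32, and erythroid (1 of 4) and fibroblast markers (2 of 4) each to under 1 on every array. The part of these cells in the members' differences was not tested. Fewer cells of a type and less RNA per cell cannot be told apart in such samples.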

How the data were processed

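Each group's total RNA, labelled with Cy3, went on 1 array of its own, 4 in all. The intensity used is gProcessedSignal as deposited. Per the file headers it was made by Feature Extraction 12.0.3.1 with background subtraction and is on a linear scale, unscaled between arrays. The submitters' processing notes give the version as 11.5.1.1. All 4 arrays lie on 1 slide with 1 scan time. A second deposited file, the authors' table, lists intensities of 31529 spots. Within an array they are the scanner's processed signals multiplied by a constant (9.30 for LPS with LA, 5.82 for LPS, 8.38 for LA and 6.67 for medium). Its values are linear and not centred, with column medians of 1189, 873, 1164 and 1038 in that order. Flags for background, saturation and outlier spots were used as the deposited scanner output gives them; 0 spots were saturated.

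Outlier spots were left out, spots of a probe were averaged, and levels are log2 of the intensity minus log2 of the 75th percentile of spots that are not controls (146 with LPS and LA, 174 with LPS, 158 with LA and 179 in medium), values computed here from the deposited intensities. Members and lists were chosen with earlier results of these data known. Symbols came from RefSeq (GRCm38.p6) by transcript identifier; the scanner output itself names no genes (33767 of 56605 probes matched 1 symbol, 0 several and 22838 none), and the headers name mm9, so no array coordinate was used. Another 5 noncoding probes that span at least 1 have no symbol and were left out, because the rule needs one.

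Genes to be named were, in each comparison of LPS minus medium, LA minus medium, LPS with LA minus LPS and LPS with LA minus LA, the 5 highest and 5 lowest members with an ordinary symbol and the 2 highest and 2 lowest others, together with list members, opposite-strand and pseudogene partners, members whose neighbour was at least 2-fold apart, and members with several probes. Not all genes that this rule gave are printed. Stxbp3-ps, Bloodlinc, H2-K2, F630028O10Rik, Rnu1a1, AU022793 under LA and the members 2-fold apart in both settings were named after their values were seen. Mir155hg was named from its list. The coding marker genes are those fixed for cell types.

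A call means a difference of at least 1 log2 unit, with no p-value. The alternatives tried scaled by the median, by the 75th percentile of spots above background, by the authors' table or by quantiles, or used normexp (offset 50, on the median spot signal), kept outlier spots, took probes above background on at least 1 array, took brighter members, or set the limit at 1.5. The step that makes calls was also run on simulated levels with known shifts. Python 3.11.15 (numpy 2.4.6, pandas 2.3.3, matplotlib 3.10.9) and R 4.3.3 with limma 3.58.1 were used.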

Additional observations from a re-analysis of the deposited data

Results flagged for a closer look

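A few members went opposite ways in settings that share no array, and this difference was not tested, since there is 1 array per group. Gm4827 differed by -1.06 between LPS with LA and LA, and by 1.40 between LPS and medium. The values were -1.47 and 1.62 for Gm6524 and -1.28 and 1.20 for 4632404H12Rik. For LA, Gm6815 differed by -1.57 between LPS with LA and LPS, and by 1.31 between LA and medium.

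Of the 2444 noncoding probes, others were well above background on 1 array only and so are no members: 70 with LPS and LA, 30 with LPS, 81 with LA and 51 in medium. No such count over all probes is given here. An array's detection limit is its lowest signal still well above background, and it was highest on the LPS array, at a level of -3.49. The differences of these probes are bounds, taken against the dim probe's own value or the dim array's detection limit, whichever was higher. Some of the probes lay so near the limit that no fold could be bounded. On the LPS array only, U90926 was at least 162-fold higher than in medium, Gm13944 at least 14.9-fold and 4933412O06Rik at least 9.64-fold. On the LA array only, 1500026H17Rik was at least 28.4-fold higher than in medium, Gm1720 at least 15-fold and 1600027J07Rik at least 14.2-fold. The array of LPS with LA, which also had LA, did not show them, with levels of -5.49, -5.97 and -6.29 that were not above background. Each bound in this paragraph rests on the signal of 1 array. On the array of LPS with LA only, Gm11665 was at least 4.40-fold higher than with LPS, Gm11762 at least 3.73-fold and Ppifos at least 3.16-fold.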

How the results depend on the processing

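No paired analysis was possible because each group has 1 array. Of 132 counts under alternatives, 87 were within 1.5 times the value reported and 45 were not. Counts are given as higher and lower, in the order LPS minus medium, LA minus medium, LPS with LA minus LPS, LPS with LA minus LA, LPS with LA minus medium. After normexp, whose offset shrinks differences of dim probes, 64 members were left, with 21 and 4, 7 and 9, 20 and 31, 0 and 1, and 7 and 9. Without the demand that all 4 arrays be above background there were 576, with 143 and 146, 156 and 106, 197 and 135, 79 and 106, and 140 and 111. A limit of 1.5 log2 units left 87, with 24 and 11, 12 and 13, 23 and 33, 0 and 0, and 10 and 11. Of the brighter members there were 127. Among them 23 were lower with LPS than in medium, 20 were higher and 20 lower with LA than in medium, and 34 were higher with LPS and LA than with LPS. LPS with LA minus LA gave 0 and 6, and LPS with LA minus medium 17 and 18. The authors' deposited table gave, for LPS minus medium, 61 members lower, and for LPS with LA minus LPS, 35 lower. Among long noncoding RNAs alone, a choice made after seeing the data, 39 were higher with LPS and LA than with LPS. Relative to the scaling used, the median of all probes moved by -0.24 for LPS minus medium, 0.15 for LA minus medium, 0.42 for LPS with LA minus LPS and 0.18 for LPS with LA minus medium in the authors' table, by -0.19 for LPS minus medium and 0.28 for LPS with LA minus LPS with the percentile over spots above background, and by -0.11 for LPS with LA minus LPS with median scaling. The share of called members that were higher moved by over 10 percentage points from 49.2% for LPS with LA minus medium (60.9% in the authors' table) and from 45.8% for LPS with LA minus LA (0.0% after normexp). Of the members' 307 differences of at least 2-fold in the first 4 comparisons, 277 stayed so with median scaling, 267 with the percentile over spots above background, 256 in the authors' table, 279 after quantile normalization, 307 with outlier spots kept and 93 after normexp, and none changed sign. Normexp moved 170 of them by over 1.5 times.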

Other observations

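Of the 30 noncoding probes above background on the LPS array only, 3 are given here that were picked by name after their values were seen. Trim30e-ps1, a pseudogene of an interferon-inducible family, was at least 6.30-fold higher with LPS than in medium, Ptgs2os2, which is named for the prostaglandin synthase gene Ptgs2, at least 5.49-fold, and Il1bos, named for the cytokine gene Il1b, at least 4.42-fold. Ptgs2os, also named for Ptgs2, was above background on no array. The coding gene Ptgs2 differed by 6.09 log2 units for LPS minus medium and -5.95 for LPS with LA minus LPS, and Il1b by 4.17 and -3.65.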
